A study of Capra hircus with 4 samples.

Results

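The inhibin and activin subunit genes INHA, INHBA and INHBB and the activin-binding protein gene FST were followed through ovary nuclei of 4 goats. They were chosen by name, and each matched a single feature of the count matrices, so all 4 of the 4 chosen genes were found among 28944 genes. The groups were 2 Nubian goats, a polytocous breed with recorded litters of 3 or more, and 2 Du'an goats, a monotocous breed with recorded litters of 1. All 4 goats were about 3 years old, carried a 300 mg progesterone device for 17 days to synchronize estrus and received no other hormone for superovulation. The ovary was sampled at estrus, and each goat gave 1 library of single-nucleus RNA counted as unique molecular identifiers (UMIs). With 1 ovary sample per goat, breed and litter record cannot be told apart. The p-values between breeds measure the spread between goats. Those between classes or subtypes of nuclei come from sums per goat and class with differences between goats taken out. They measure how far class differences vary over the 4 goats, pooled over the classes in a fit.

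Inhibins and activins are dimers of the transforming growth factor beta family. INHA encodes the alpha subunit, INHBA encodes the beta A subunit and INHBB encodes the beta B subunit. An alpha subunit joined to a beta subunit gives an inhibin, which lowers the secretion of follicle-stimulating hormone by the pituitary, whereas a pair of beta subunits gives an activin, which raises it. FST encodes follistatin, which binds activin and keeps it from its receptors. In the ovary, granulosa cells (GCs) of growing follicles are the known main source of these proteins.

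The 4 libraries kept 44734 nuclei after filtering, with 29800057 to 54540864 UMIs per library and median depths of 1755 to 3292 UMIs per nucleus. Between 54 and 131 nucleus barcodes were shared by any pair of libraries. Clustering without the 4 genes and the related pathway genes gave 21 clusters, of which 20 took 1 of 11 class names from marker genes. Classes are called "X-like" because the names were rebuilt here. The remaining cluster of 3533 nuclei, led by OVN and ribosomal protein genes, stayed without a name. No oocyte-like, B cell-like or stromal-like class was found. In the smooth muscle-like cluster the stromal list came second, with a mean log2 fold of 3.08 against 3.76, so stromal nuclei were not named apart from it. GC-like nuclei numbered 4257 and 4355 in the Du'an goats and 8598 and 5166 in the Nubian goats. Clustered again, they gave mural-like, cumulus-like, common progenitor-like and cycling-like GCs, plus 1967 shallow GC-like nuclei with no subtype name.

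GCs held most UMIs of all genes, and a larger part of INHBA, INHBB and FST. On average over the 4 goats, GC-like nuclei carried 69.9% of the INHA UMIs, 86.9% of the INHBA UMIs, 87.3% of the INHBB UMIs and 85.8% of the FST UMIs of a library. They carried 68.2% of the UMIs of all genes together, so the share of INHA was near that of all RNA. Levels are given in CPM, the usual depth-scaled count: the UMIs of a gene relative to all UMIs of the class in a goat. In GC-like nuclei, INHA stood at 9.11 CPM in Du'an replicate 1, 88.6 in Du'an replicate 2, 236 in Nubian replicate 1 and 31.4 in Nubian replicate 2. The 2 goats of a breed thus lay far apart. INHBA stood at 71.8 and 899 CPM in the Du'an goats and at 1567 and 433 CPM in the Nubian goats, in the same order of goats as INHA. INHBB stood at 69.9 and 115 CPM in the Du'an goats and at 317 and 159 CPM in the Nubian goats, the only gene of the 4 for which both Nubian goats lay above both Du'an goats. FST stood at 487, 467, 510 and 355 CPM in the same order of libraries and differed little between goats.

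UMI counts summed per goat and class were compared with edgeR, with the goat as a block and every class weighted alike. All 4 genes were higher in GC-like nuclei than in the mean of the other named classes, against 21.1% of all 13983 genes tested. The lists that named GC-like nuclei hold CYP19A1, SERPINE2 and NR5A2. The paper reports these as GC hub genes of the same data, beside INHBA and INHBB. Higher INHBA and INHBB in GC-like nuclei are thus not independent of the naming. FST had a log2 fold change of 2.73 (SE 0.203, adjusted p = 3.83e-14) and INHBB of 2.71 (SE 0.212, adjusted p = 1.51e-13), and their order changed between alternatives. INHBA was at 2.36 (SE 0.203, adjusted p = 1.91e-12). INHA, the inhibin-specific subunit, had the smallest difference, with 1.23 (SE 0.191, adjusted p = 1.44e-06). The 4 calls held under each alternative tried. Without Nubian replicate 1 the value of INHBB rose to 3.94, and without the nuclei of the highest doublet scores the values ran from 1.83 for INHA to 3.74 for FST. The scaling set the balance of all calls: the median gene lay at 0.02, and at -0.20 with the size factors of DESeq2 in edgeR and -0.30 with DESeq2 itself. The share of calls that were higher was then 35.7% and 26.6%, against 55.5%.

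The INHA difference depended on how the other nuclei were weighted. Pooled over all other named classes by their UMIs, INHA stood at 6.78 and 29.9 CPM outside GC-like nuclei in the Du'an goats and at 206 and 12.9 CPM in the Nubian goats. GC-like nuclei were above this level in each goat, by 0.38, 1.53, 0.20 and 1.22 on the log2 scale with 1 CPM added. In Nubian replicate 1, pericyte-like nuclei at 271 CPM and smooth muscle-like nuclei at 240 CPM reached the INHA level of GC-like nuclei, as did fibroblast-like nuclei. With the unnamed cluster included, INHA was not higher in GC-like nuclei of either Nubian goat. The other subunits did not behave this way: INHBA, INHBB and FST were higher in GC-like nuclei than in all other nuclei pooled in every goat, by 0.74 to 2.41.

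**Figure D1:**
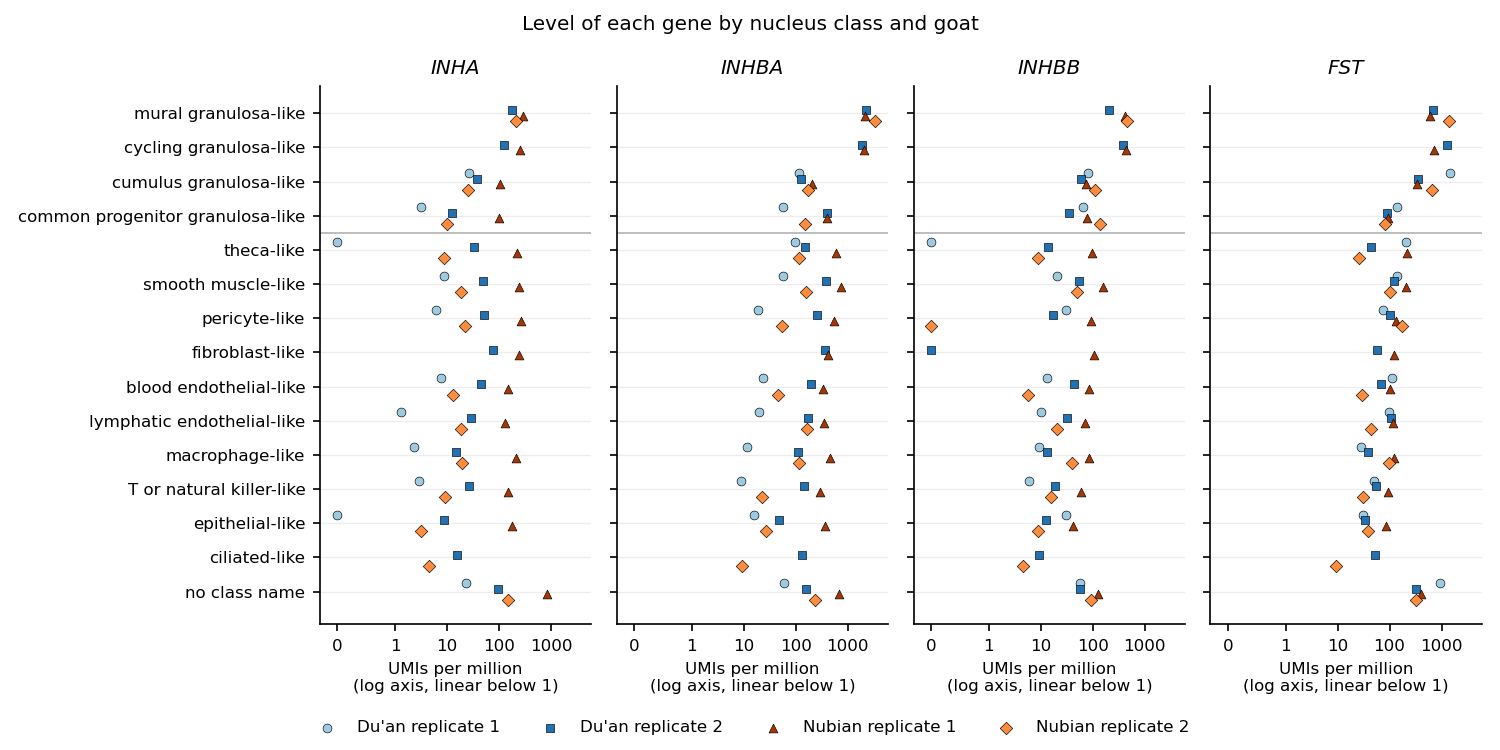
Level of INHA, INHBA, INHBB and FST in CPM (horizontal axis, logarithmic above 1 and linear below) in each class and granulosa subtype with at least 20 nuclei in a goat; each point is 1 goat. Mural-like and cycling-like GCs stand highest for INHBA, at 1875 to 3385 CPM, and Nubian replicate 1 stands highest in most classes outside GCs.

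Outside GCs, few classes stood apart from the mean of the others. Smooth muscle-like nuclei had higher INHBA (log2 fold change 0.97, SE 0.231, adjusted p = 0.00157) and INHBB (0.95, SE 0.242, adjusted p = 0.00293) than the mean of the other classes, where 14.7% of genes were higher and 6.08% lower. Both calls were lost without the highest doublet scores (0.69 for each, adjusted p = 0.0973 and 0.109), and that of INHBB also at a finer clustering (0.24, adjusted p = 0.617). Without the highest doublet scores, a cluster of 5819 nuclei with all 8 smooth muscle markers up took no class name. This left 2373 smooth muscle-like nuclei against 9292 in the main clustering. In epithelial-like nuclei all 4 genes were lower, against 10.4% of genes lower and 14.8% higher, with INHA at -1.31 (adjusted p = 0.00318). The other values were -1.44 for INHBA (adjusted p = 0.00117), -1.22 for INHBB (adjusted p = 0.0315) and -1.04 for FST (adjusted p = 0.0234). Each of these 4 calls was lost without Du'an replicate 2, where the adjusted p ran from 0.0607 to 0.181. INHA was also lost without Nubian replicate 2 (adjusted p = 0.153), and FST without Du'an replicate 1 (adjusted p = 0.0521) or Nubian replicate 1 (adjusted p = 0.128). INHBB was lost under 5 of 10 alternatives, among them without Nubian replicate 1 (-0.11) or 2 (adjusted p = 0.194). In epithelial-like nuclei INHA had 0 and 4 UMIs in the Du'an goats and 17 and 7 in the Nubian goats. INHBB had 2 and 6 UMIs in the Du'an goats and 4 and 19 in the Nubian goats. INHBA was also lower in T or natural killer-like nuclei (-0.76, adjusted p = 0.0224, with 21.0% of genes lower and 33.5% higher) and in ciliated-like nuclei (-1.19, adjusted p = 0.0452, with 7.29% of genes lower). The first was lost without Du'an replicate 1 (-0.71, adjusted p = 0.0529) and without the highest doublet scores (-0.50, adjusted p = 0.227). The second was lost under 8 alternatives: without Du'an replicate 1 (adjusted p = 0.0569), Nubian replicate 1 (0.0704) or Nubian replicate 2 (-0.54, adjusted p = 0.540), with DESeq2 (0.0842) or its size factors (0.104), at a coarser (0.0851) or finer clustering (0.0796), and without the highest doublet scores (-0.85, adjusted p = 0.300).

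In T or natural killer-like nuclei, the level of INHBA moved with its level in GCs from goat to goat. INHBA in T or natural killer-like nuclei stood at 8.88 CPM in Du'an replicate 1, 141 in Du'an replicate 2, 290 in Nubian replicate 1 and 22.0 in Nubian replicate 2. This is the same order of goats as in GC-like nuclei. The T or natural killer markers in GC-like nuclei summed to 15.5, 57.1, 37.8 and 17.8 CPM in the same libraries, with all 11 markers detected. INHBB and FST did not keep the order, as nuclei of 1000 UMIs or more showed. INHBB was at 18.1 CPM in Du'an replicate 2 and 14.3 in Nubian replicate 2, against 115 and 158 in GC-like nuclei. FST was at 47.0 CPM in Du'an replicate 1 and 54.1 in Du'an replicate 2, against 481 and 467 in GC-like nuclei. Free RNA in the droplets and its part in the levels outside GCs were not tested.

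Mural-like GCs, named from a list with the aromatase gene CYP19A1 and the luteinizing hormone receptor gene LHCGR, had the highest INHA and INHBA levels of the 14 classes and subtypes ranked. The cluster without a class name was not ranked. Its mean INHA was 276 CPM, against 226 CPM in mural-like GCs. Of the goats with mural-like GCs, it stood above them in INHA only in Nubian replicate 1. INHA stood at 179 CPM in Du'an replicate 2, 290 in Nubian replicate 1 and 210 in Nubian replicate 2. INHBA stood at 2190, 2153 and 3385 CPM, INHBB at 205, 417 and 449 CPM and FST at 691, 594 and 1374 CPM in the same goats. Du'an replicate 1 had no mural-like nucleus among 4257 GC-like nuclei, which by counting error alone allows a share of up to 0.0705%. This bound does not cover the naming. The 1967 shallow GC-like nuclei without a subtype name had all 6 mural markers up, and 153 of them were from this goat. Without the highest doublet scores, 2 subclusters named mural-like held 7 and 1 of its nuclei. The mural-like GCs came from 3 subclusters, each nearly all from a single goat: 1447 of 1472 nuclei from Du'an replicate 2, 4326 of 4369 from Nubian replicate 1 and all 411 of the third from Nubian replicate 2.

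Against the mean of the other GC subtypes, all 4 genes were higher in mural-like GCs, where 5.96% of the 13575 genes tested were higher and 5.80% lower. Every gene of the mural list is among the GC hub genes that the paper reports from these same data, as are INHBA and INHBB. The paper also reports INHA as high in mural GCs of these data, beside the list genes CYP19A1, LHCGR and SERPINE2. Higher INHA, INHBA and INHBB in nuclei named from this list thus follow in part from the naming. The log2 fold changes were 2.63 for INHBA (SE 0.352, adjusted p = 0.00132) and 2.23 for INHA (SE 0.419, adjusted p = 0.00752). Those of FST and INHBB were smaller, at 1.37 (SE 0.237, adjusted p = 0.005) and 1.36 (SE 0.181, adjusted p = 0.00128). The 4 subtype comparisons share 1 fit, so a gene higher in mural-like GCs is drawn lower elsewhere. Leaving out 1 goat kept the directions but cost calls. Without Du'an replicate 2, the adjusted p was 0.138 for INHA (2.26) and 0.0595 for FST (1.54). Without Nubian replicate 1, it was 0.0538 for INHBA (2.90), 0.0842 for INHBB (1.11) and 0.0804 for FST (1.41). The number of genes called in either direction fell from 1597 to 399 and 210 in these fits, which hold 1 mural-like library fewer.

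Cycling-like GCs, named from mitosis genes such as TOP2A and ASPM, stood beside mural-like GCs. Their single subcluster of 747 nuclei also had all 6 mural markers up, so its levels are not read as particular to cycling. With 36 nuclei in Du'an replicate 2 and 696 in Nubian replicate 1, INHBA was at 1875 and 2048 CPM, INHA at 123 and 251 CPM, INHBB at 382 and 440 CPM and FST at 1258 and 708 CPM. INHBB (log2 fold change 2.05, adjusted p = 1.30e-04), INHBA (1.93, adjusted p = 0.0102) and FST (1.86, adjusted p = 0.00136) were higher than in the other subtypes, against 8.43% of genes higher and 4.84% lower, while INHA was at 1.06 (adjusted p = 0.217). These calls depended on how nuclei were grouped. At a finer clustering INHBA came to -0.01 and INHBB to 0.15 (adjusted p = 0.860), and without the highest doublet scores they came to 0.24 and 0.41. In the last setting, cycling-like GCs also held a subcluster of 810 nuclei whose best marker list was the cumulus one. Without Du'an replicate 2 the adjusted p of INHBA was 0.0949 and that of FST 0.0746, and without Nubian replicate 1 they were 0.299 and 0.0604.

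Common progenitor-like GCs, named from a list with IGFBP5 and ENPP1, had the lowest mean INHA, INHBB and FST of the 4 named GC subtypes, while mean INHBA was lowest in cumulus-like GCs. Mean INHBB was close to the 81.1 CPM of cumulus-like GCs, at 79.6 CPM, and cumulus-like GCs were higher in 2 of 4 goats. For INHBA the goats were split as well, with common progenitor-like GCs lower in Du'an replicate 1 and Nubian replicate 2. FST stood at 139 and 90.6 CPM in the Du'an goats and at 91.5 and 83.1 CPM in the Nubian goats, a narrow range. INHA stood at 3.11, 12.7, 99.3 and 10 CPM and INHBA at 57.4, 395, 400 and 151 CPM in the same order of libraries. INHBB stood at 66.0, 34.9, 76.8 and 141 CPM, with no overlap with mural-like GCs. In the comparison with the other subtypes all 4 genes were lower, against 14.2% of genes. FST fell by 3.25 on the log2 scale (SE 0.264, adjusted p = 1.51e-05), INHA by 2.48 (adjusted p = 0.00176), INHBA by 1.92 (adjusted p = 0.00221) and INHBB by 1.74 (adjusted p = 1.00e-04). The INHBA and INHBB calls were lost at a finer clustering (-1.24 and -1.22, adjusted p = 0.0549 and 0.0640) and without the highest doublet scores (-1.11 for each, adjusted p = 0.0574 and 0.0600). In the last setting, a cluster of 2414 nuclei whose best marker list was the common progenitor one took no class name.

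In cumulus-like GCs, named from a list with IGFBP2 and CHST8, the beta subunits and follistatin parted. INHBA stood at 113 and 127 CPM in the Du'an goats and at 203 and 168 CPM in the Nubian goats, far below every mural-like value. INHBA was lower than in the other subtypes (fell by 2.63 on the log2 scale, SE 0.399, adjusted p = 0.00168), as was INHBB (fell by 1.67, SE 0.189, adjusted p = 3.67e-04), against 6.92% of genes lower and 9.15% higher. FST, in contrast, stood at 1484 and 348 CPM in the Du'an goats and at 332 and 659 CPM in the Nubian goats. Only Du'an replicate 1, which had no mural-like nuclei, reached above every mural-like value. The 659 CPM of Nubian replicate 2 lay above the mural-like value of Nubian replicate 1, so the ranges overlapped. In the 3 goats with both subtypes, FST was higher in mural-like than in cumulus-like GCs, by 0.96 on the log2 scale (SD 0.11). Against the mean of the other subtypes, the log2 fold change of FST was 0.02 (SE 0.234, adjusted p = 0.967), and that of INHA was -0.81 (SE 0.429, adjusted p = 0.24). The INHBA call was lost without Nubian replicate 1 (-2.54, adjusted p = 0.0616). The INHBB call was lost at a finer clustering (-0.37, adjusted p = 0.646) and without the highest doublet scores (-0.94, adjusted p = 0.149).

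**Figure D2:**
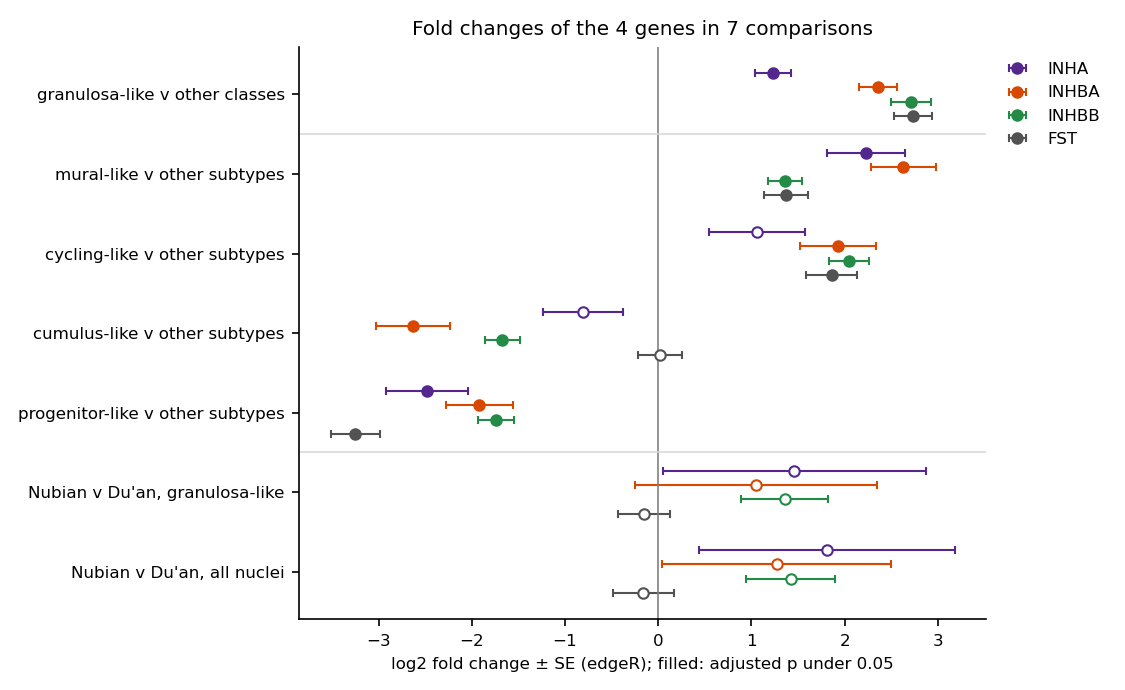
Log2 fold change with its standard error (horizontal axis) of the 4 genes in the class, subtype and breed comparisons; filled points have an adjusted p under 0.05 in edgeR's quasi-likelihood test. All 4 points are filled and positive in GC-like and mural-like nuclei, all 4 are filled and negative in common progenitor-like GCs, and none is filled between breeds.

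In order of mean level among the named classes and subtypes, INHA and INHBA ran from mural-like to cycling-like GCs and then to fibroblast-like nuclei. INHBB and FST ran from cycling-like to mural-like to cumulus-like GCs. Most neighbours in these orders overlapped between goats. For INHBA, mural-like GCs (2576 ± 701 CPM, SD, n = 3) did not overlap with cycling-like GCs (1962 ± 122, n = 2), nor these with fibroblast-like nuclei (393 ± 40, n = 2). The first gap was small, with a paired log2 difference of 0.15 (SD 0.11, n = 2 goats) between mural-like and cycling-like GCs. For INHBB, mural-like GCs (357 ± 133, n = 3) did not overlap with cumulus-like GCs (81.1 ± 20.5, n = 4). For FST, cumulus-like GCs (706 ± 540, n = 4) did not overlap with the next class, smooth muscle-like nuclei (144 ± 46.8, n = 4). The unnamed cluster, left out of these orders, stood at 323 to 937 CPM of FST and overlapped with cumulus-like GCs. For INHA no neighbours were apart.

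The proportions of the genes to each other shifted between subtypes. Each ratio is UMIs of a gene per UMI of INHBA, and only the same ratio is compared between subtypes, since transcripts differ in length. FST per INHBA was 0.315, 0.276 and 0.406 in mural-like GCs of Du'an replicate 2, Nubian replicate 1 and Nubian replicate 2. In cumulus-like GCs it was 13.2, 2.73, 1.64 and 3.91, the Du'an goats first and each breed in replicate order. The lowest cumulus-like ratio thus exceeded the highest mural-like ratio, and the counting intervals, 1.54 to 1.74 and 0.389 to 0.424, did not overlap. INHA per INHBA was also higher in cumulus-like GCs, at 0.231, 0.300, 0.525 and 0.148, than in mural-like GCs, at 0.0818, 0.135 and 0.0621. The ranges did not overlap, but the counting intervals of the nearest values did. These were 0.125 to 0.174 in cumulus-like GCs of Nubian replicate 2 and 0.131 to 0.138 in mural-like GCs of Nubian replicate 1. In each goat with both subtypes, the cumulus-like ratio was the higher. In T or natural killer-like nuclei the same ratio was 0.333, 0.188, 0.516 and 0.409. That of Du'an replicate 1 rested on 1 INHA and 3 INHBA UMIs (counting interval 0.00635 to 4.15). That of Nubian replicate 2 rested on 9 and 22 UMIs (0.166 to 0.924). The part of free RNA in the cumulus-like ratio was not tested. INHBB per INHBA in common progenitor-like GCs divided the goats, at 1.15 in Du'an replicate 1 and 0.932 in Nubian replicate 2 against 0.0881 in Du'an replicate 2 and 0.192 in Nubian replicate 1. The first pair are the goats with mostly common progenitor-like GCs.

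**Figure D3:**
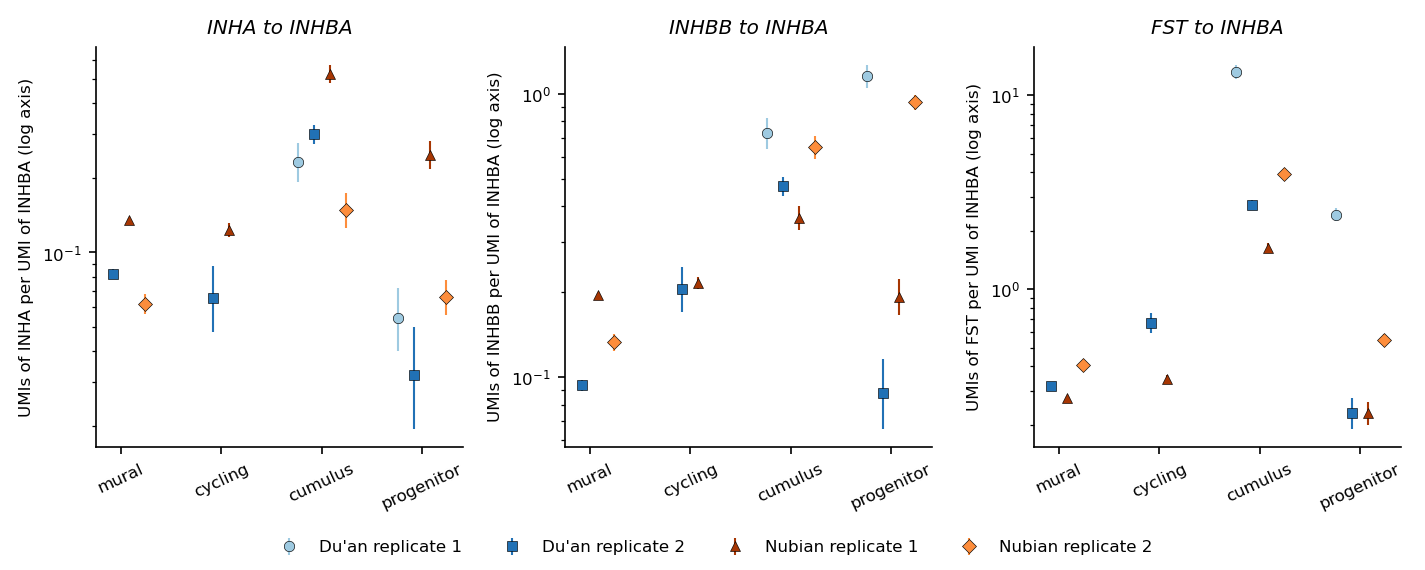
UMIs of INHA, INHBB and FST per UMI of INHBA (vertical axes, logarithmic) in 4 GC subtypes; each point is 1 goat with at least 20 nuclei of the subtype, and bars are 95% intervals for counting error. FST per INHBA lies at 1.64 to 13.2 in cumulus-like GCs, above every mural-like value.

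At the level of single nuclei, detection was compared after each nucleus was thinned to 1000 UMIs. The share of mural-like nuclei with an INHBA UMI was 80.3% (95% exact binomial interval 78.1 to 82.3) in Du'an replicate 2, 82.9% (81.7 to 84.0) in Nubian replicate 1 and 92.1% (88.9 to 94.5) in Nubian replicate 2. Intervals cover counting error only. Without thinning these shares were 96.8%, 96.6% and 97.9%, with a median of 11, 8 and 12.5 INHBA UMIs per nucleus at median depths of 6007, 4100.5 and 3402.5 UMIs. INHBA thus marked nearly all mural-like nuclei of each goat that had them. Over goats the mural-like share was 85.1% ± 6.18 (SD, n = 3) for INHBA, 43.7% ± 10.7 for FST, 28.3% ± 9.63 for INHBB and 20.3% ± 4.51 for INHA. In cumulus-like GCs it was 38.6% ± 18.8 (SD, n = 4) for FST, 13.3% ± 5.03 for INHBA, 7.46% ± 1.10 for INHBB and 5.56% ± 4.68 for INHA. The shares in T or natural killer-like nuclei were 10.4% ± 11 for INHBA, 5.92% ± 2.27 for FST, 5.33% ± 6.53 for INHA and 2.54% ± 2.45 for INHBB (n = 4). In common progenitor-like GCs the shares were 3.23% ± 4.38 for INHA, 17.1% ± 10.6 for INHBA, 8.14% ± 2.81 for INHBB and 8.69% ± 1.78 for FST (n = 4). The INHA and INHBA shares of cumulus-like and common progenitor-like GCs lay within 1 SD of those in T or natural killer-like nuclei, at median depths of 2161.5 to 2723 UMIs in the latter. This SD is a spread between goats. Within each goat, INHBA in CPM was higher in common progenitor-like GCs than in T or natural killer-like nuclei. In cumulus-like GCs it was higher only in Du'an replicate 1 and Nubian replicate 2. The part of free RNA in these shares was not tested, so they are not read as expression or as its absence.

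An inhibin needs the alpha and a beta subunit in 1 cell. In mural-like GCs thinned to 1000 UMIs, 14.4%, 21.8% and 17.2% of nuclei held both INHA and INHBA in Du'an replicate 2, Nubian replicate 1 and Nubian replicate 2. Most nuclei in each goat held a beta subunit and no INHA, at 68.4%, 64.5% and 76.7%, while 2.27%, 2.48% and 1.28% held INHA and no beta subunit. INHBA was seen in 84.6%, 85.5% and 93.1% of INHA-positive nuclei and in 79.4%, 82.0% and 91.8% of the others, a difference that was not tested. INHBA and INHBB were seen together in 14.3%, 28.7% and 32.6% of mural-like nuclei and INHBA with FST in 33.7%, 31.2% and 52.3%. These shares rise with depth: at 2000 UMIs the mean for INHA with INHBA was 30.4%. A nucleus without a UMI is therefore not shown to lack the transcript.

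The deposited tables of GC subtypes and follicle stages give the authors' own pooled shares, made from nuclei of all goats together with the authors' names. In the authors' mural GCs, INHBA was listed at 96.5% of nuclei, INHBB at 62.7%, INHA at 59.4% and FST at 69.3%. The paper used INHBA itself, with CYP19A1 and LHCGR, as a marker to name mural GCs, so its high share there follows from the naming. For cumulus GCs only FST was listed, at 56.9%, and for common progenitor GCs none of the 4 genes. By follicle stage, all 4 genes were listed for antral GCs, with INHBA at 96.5%, INHBB at 65.3%, INHA at 60.2% and FST at 70.7%. FST was the only member listed for primary (61.6%) and secondary (55.0%) stages, and none was listed for the primordial stage. These are pooled values without a spread over goats.

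The breed comparison asked whether the genes differed between the polytocous and the monotocous goats. In GC-like nuclei edgeR called none of 14879 genes in either direction (0%), with 372 genes at an unadjusted p under 0.05, and DESeq2 called 26, none of them among the 4. The log2 fold change of Nubian over Du'an goats was 1.36 for INHBB (SE 0.467, unadjusted p = 0.0392, adjusted p = 1 in edgeR). It was 1.46 for INHA (SE 1.41), 1.05 for INHBA (SE 1.3) and -0.15 for FST (SE 0.276), each with an adjusted p of 1. The SE of INHA and INHBA was near or above the difference itself, and without Nubian replicate 1 their values turned to -0.69 and -0.21. INHBB kept its direction without each goat in turn, at 0.73 to 1.78. The shares of GC-like nuclei with an INHBB UMI averaged 19.0% in the Nubian and 8.60% in the Du'an goats (two-sided exact permutation p = 0.333, the smallest that 2 against 2 allows). For INHBA they were 40.8% and 22.2% (exact permutation p = 0.667), for INHA 12.1% and 5.0% (exact permutation p = 0.667) and for FST 26.3% and 27.3% (exact permutation p = 1.00).

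The makeup of the GCs differed widely between the goats of a breed, and the mural-like and common progenitor-like shares of the breeds overlapped. Whether the makeup differed between breeds was not tested. Mural-like nuclei made up 0%, 33.8%, 50.6% and 8.36% of GC-like nuclei, again with the Du'an goats first, and common progenitor-like nuclei made up 70.7%, 4.89%, 7.32% and 59.7%. INHA and INHBA in whole libraries followed the mural-like share: INHA was at 9.09, 73.2, 247 and 32.7 CPM, a 27.1-fold range, and INHBA at 63.9, 612, 1261 and 334 CPM, a 19.7-fold range. CYP19A1, a mural marker, spanned 157-fold in the same order of goats. FST did not follow it, at 418, 340, 412 and 279 CPM, a 1.5-fold range, and INHBB was intermediate, at 57.0, 83.6, 257 and 121 CPM, a 4.51-fold range. In such sums, fewer nuclei of a subtype and less RNA per nucleus cannot be told apart.

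**Figure D4:**
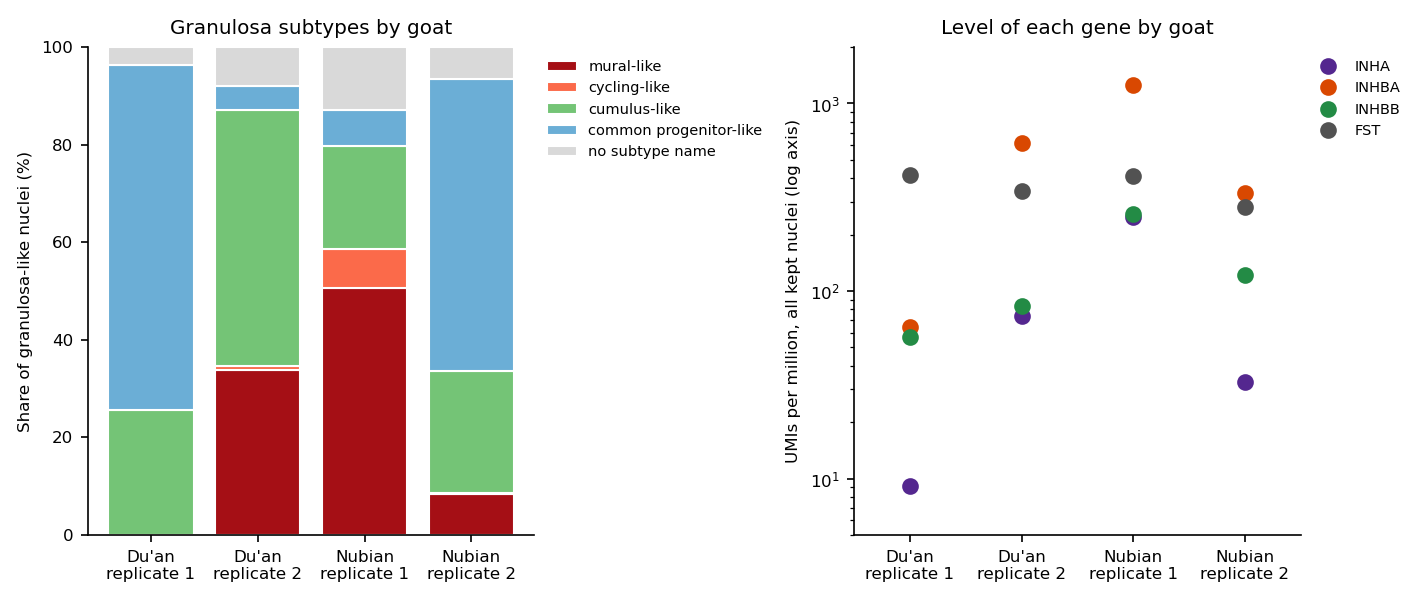
Left, share of each subtype among GC-like nuclei of each goat (percent, stacked bars); right, level of the 4 genes over all kept nuclei of each goat in CPM (logarithmic axis). INHA and INHBA are lowest in Du'an replicate 1, which has no mural-like GCs, and highest in Nubian replicate 1, where these are 50.6%, while FST stays at 279 to 418 CPM.

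Within cumulus-like and common progenitor-like GCs no difference of the 4 genes between breeds passed the threshold. In mural-like GCs only Du'an replicate 2 stood against 2 Nubian goats, so the log2 fold changes of 0.51 for INHA, 0.36 for INHBA, 0.53 for FST and 1.10 for INHBB are given as values and say nothing of the breeds. In cumulus-like GCs it was 0.95 for INHA, 0.57 for INHBA (unadjusted p = 0.0242, adjusted p = 1 in edgeR), 0.32 for INHBB and -0.91 for FST. The Du'an goats differed in cumulus-like FST, as Du'an replicate 1 stood at 1484 CPM and Du'an replicate 2 at 348 CPM. In common progenitor-like GCs the values were 2.93 for INHA, 1.04 for INHBB, 0.25 for INHBA and -0.46 for FST, with adjusted p-values of 1. INHA there stood at 3.11 and 12.7 CPM in the Du'an goats and at 99.3 and 10 CPM in the Nubian goats, which overlapped. With no filter on low counts its adjusted p was 9.94e-08 (2.91), the only setting that called it. Whether breed effects differed between subtypes was not tested. Cycling-like GCs had at least 20 nuclei in only 1 goat of each breed and allowed no such test.

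The genes whose levels ran most alike were compared over 49 sums of a class and a goat, among 9409 genes with a mean of at least 10 CPM, as a description. The sums share libraries and depth. INHA ran most like CYP19A1 (Pearson's r = 0.921), MFGE8 (0.905), which encodes a secreted protein that bridges cells, and SERPINE2 (0.900), a protease inhibitor gene of GCs. CYP19A1 and SERPINE2 were on the list that named mural-like GCs. INHBA ran most like the uncharacterized C22H3orf67 (r = 0.950), the meiotic synaptonemal complex gene SYCP1 (0.931) and CYP19A1 (0.909). INHBB ran most like UNC79 (r = 0.841), a subunit gene of the sodium leak channel complex, MRO (0.812) and the respiratory complex I gene NDUFS4 (0.808). FST ran most like GCLC (r = 0.933), which encodes the rate-limiting enzyme of glutathione synthesis, the tolloid-like protease gene TLL2 (0.917) and SMAD2 (0.904). INHA and INHBA ran alike at r = 0.855, while FST was at 0.512 with INHA and 0.665 with INHBA.

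The surrounding pathway was read from a list of 32 genes for further ligands, binding proteins, receptors, signal transducers, convertases and transcription factors. Activins bind type II receptors, which recruit type I receptors that phosphorylate SMAD2 and SMAD3, and these enter the nucleus with SMAD4. Of 23 listed genes tested, 13 were higher in GC-like nuclei and 3 lower, against 21.1% and 16.9% of all genes, with a median log2 fold change of 0.81 against 0.02 over all genes. The type II receptor gene ACVR2B was at 0.82 (SE 0.157, adjusted p = 4.95e-05) and the type I receptor gene ACVR1C at 1.67 (SE 0.459, adjusted p = 0.00327). TGFBR3, which encodes betaglycan, the coreceptor that gives inhibin its hold on activin receptors, was at 1.14 (SE 0.156, adjusted p = 1.29e-07). The signal transducers tested were all higher, with SMAD2 at 2.19 (SE 0.12, adjusted p = 1.08e-17), SMAD4 at 1.15, SMAD3 at 0.81 and the SMAD anchor gene ZFYVE9 at 0.80. The convertase genes PCSK5 and PCSK6, whose products cleave precursors of this family, were at 1.36 and 1.15. Among transcription factors of GCs, ESR2 was at 2.30, GATA4 at 2.01, GATA6 at 1.52 and NR5A1 at 1.31. The ubiquitin ligase gene SMURF1, an inhibitor of SMAD signalling, fell by 1.38 (SE 0.225, adjusted p = 3.36e-06), and BAMBI, which encodes a pseudoreceptor, fell by 1.12 (adjusted p = 0.0281). The type I receptor gene ACVR1 fell by 0.50 (SE 0.188, adjusted p = 0.0316), a call lost under 7 alternatives, among them without Du'an replicate 2 (-0.33, adjusted p = 0.319), Nubian replicate 1 (-0.37, adjusted p = 0.253) or Nubian replicate 2 (adjusted p = 0.0525). BAMBI came to 0.20 without Nubian replicate 1 and lost its call without Du'an replicate 2 or Nubian replicate 2 (adjusted p = 0.206 and 0.0564) and at a coarser clustering (adjusted p = 0.0924). PCSK6 lost its call without Nubian replicate 2 (0.71, adjusted p = 0.127), with DESeq2 (0.83, adjusted p = 0.0784) and at a finer clustering (0.73, adjusted p = 0.0533).

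Common progenitor-like GCs, in which the 4 genes were lower than in the other subtypes, had the most calls on the list. Of 27 genes tested 11 were higher and 6 lower, against 17.8% and 14.2% of all genes, with a median of 0.35 against 0.03. SMAD7, which encodes an inhibitory SMAD, was at 4.86 (SE 0.482, adjusted p = 4.86e-05). Its level was 30.9 and 217 CPM in the Du'an and 109 and 24.7 CPM in the Nubian goats, while in cumulus-like GCs it was 3.42, 3.60, 6.85 and 1.31 CPM. FSTL3, the follistatin relative, was at 3.75 (SE 0.712, adjusted p = 0.00249), opposite to FST, although it rested on 29, 38, 10 and 43 UMIs in the 4 goats. BAMBI was at 2.61, PCSK6 at 2.25, GDF11, a ligand bound by follistatin, at 2.03, the activin type I receptor gene ACVR1B at 1.54, SMURF1 at 1.46, PCSK5 at 1.26 and SMAD3 at 1.17. The lower genes were ESR2, which fell by 2.02, FOXL2, a factor of GC identity, by 2.01, SMAD2 by 1.56, NR5A1 by 1.36, GATA4 by 1.09 and GATA6 by 1.08. FOXL2 and GDF11 were scarce, with 257 and 349 UMIs in all kept nuclei. Without Nubian replicate 1, calls were lost for FSTL3 (5.63, adjusted p = 0.0648), BAMBI (4.56, adjusted p = 0.0553), PCSK6 (1.83, adjusted p = 0.0592), GDF11 (4.10, adjusted p = 0.121), GATA6 (-0.87, adjusted p = 0.103) and FOXL2 (-1.97, adjusted p = 0.178). The call of GDF11 was also lost without Du'an replicate 2 (1.52, adjusted p = 0.10), and that of GATA6 at a finer clustering (-0.64, adjusted p = 0.145) and without the highest doublet scores (-0.56, adjusted p = 0.165).

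In mural-like GCs 3 of the 27 genes were higher and 3 lower, against 5.96% and 5.80% of all genes. ESR2 was at 1.35 (SE 0.314, adjusted p = 0.0205), GATA6 at 1.28 (SE 0.251, adjusted p = 0.00935) and NR5A1 at 0.81 (SE 0.178, adjusted p = 0.0157). The paper reports NR5A1 as high in mural GCs of these data, beside genes of the naming list, so its call is not independent of the naming. BAMBI fell by 2.63, on 2, 4 and 2 UMIs in mural-like GCs, PCSK6 by 1.63 and SMAD3 by 0.92. GATA6 stood at 430, 948 and 1293 CPM in mural-like GCs of Du'an replicate 2, Nubian replicate 1 and Nubian replicate 2, above the 174 to 408 CPM of cumulus-like GCs. These calls are as exposed to single goats as those of the 4 genes: without Nubian replicate 1 the adjusted p was 0.108 for GATA6, 0.130 for NR5A1, 0.194 for ESR2, 0.346 for PCSK6 and 0.997 for BAMBI. Without Du'an replicate 2 it was 0.0632, 0.0913, 0.0596, 0.0504 and 0.158 for the same genes and 0.106 for SMAD3, and PCSK6 was also at 0.0511 without Nubian replicate 2.

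Cumulus-like GCs had 2 calls, with PCSK6 higher (2.03, SE 0.281, adjusted p = 0.00101) and GATA6 lower (-1.22, SE 0.247, adjusted p = 0.00792). This is 1 of 27 listed genes in each direction, against 9.15% of all genes higher and 6.92% lower. Both were lost without Nubian replicate 1, at 1.80 (adjusted p = 0.102) and -1.36 (adjusted p = 0.0742). That of GATA6 was also lost at a finer clustering (-0.86, adjusted p = 0.107) and without the highest doublet scores (-0.83, adjusted p = 0.0817). PCSK6 stood at 16.5, 18.6, 13.3 and 16.7 CPM in cumulus-like GCs of the 4 goats and at 2.52, 1.84 and 1.41 CPM in mural-like GCs, with no overlap. Cycling-like GCs had 2 higher and 5 lower genes of 27, against 8.43% of all genes higher and 4.84% lower. Each of these calls was lost without Nubian replicate 1, which left 1 cycling-like library. The last 5 listed genes were scarcely seen: MSTN and TDGF1 had 0 UMIs in all kept nuclei, INHBC had 1, INHBE had 3 and FOXH1 had 4. No gene of the list was called between breeds in any class or subtype.

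**Figure D5:**
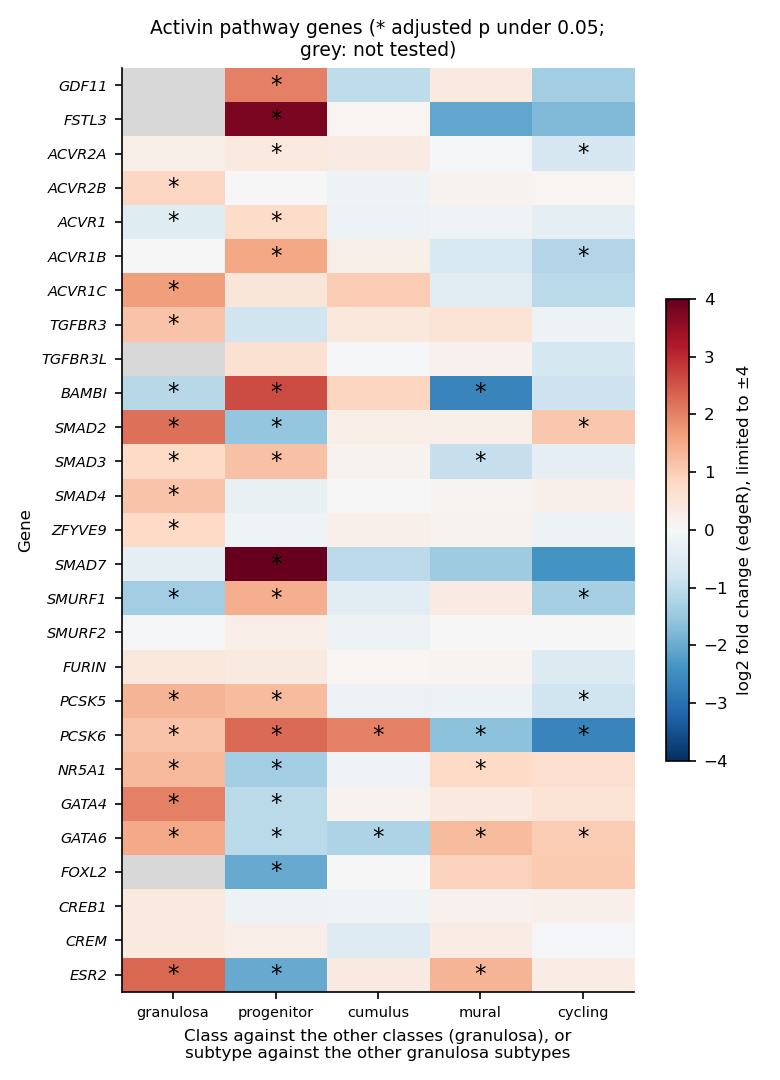
Log2 fold change (colour, limited to 4 in either direction) of the listed activin pathway genes in GC-like nuclei against the other classes and in each GC subtype against the others; asterisks mark an adjusted p under 0.05 in edgeR, and grey marks genes not tested. SMAD7, FSTL3 and BAMBI are red in common progenitor-like GCs, where ESR2, FOXL2 and SMAD2 are blue. FSTL3, BAMBI and FOXL2 had only 310, 526 and 257 UMIs in all kept nuclei.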

How the data were processed

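Nuclei of the ovaries were profiled with 10x Genomics 3' chemistry. The authors deposited 4 matrices of UMI counts per gene and nucleus, not normalized and already filtered to nuclei. Per the labels they were made with Cell Ranger 5.0.0, whereas the header of the matrices names another version. The genome is given by an assembly number only, so no coordinates are printed. The authors also deposited 2 marker tables, of GC subtypes and of follicle stages, in which the share of nuclei with a gene is a fraction, printed here as percent. Their fold changes and p-values are the authors' own comparisons and were not used.

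Nuclei within the mean plus or minus 2 SD of UMI and gene counts and with at most 20% mitochondrial UMIs were kept. Scrublet called 0, 151, 0 and 0 doublets, too few for a working caller, so the 10% of nuclei with the highest scores were left out as an alternative. The nuclei were then clustered and named again, and large clusters of smooth muscle and common progenitor type took no class name. This alternative thus also changed which nuclei were compared. The data were clustered with scanpy 1.11.5 (2000 variable genes, 30 components, 20 neighbours, Leiden resolution 0.8, and 0.5 within GCs). The 4 genes, the listed pathway genes and the markers were kept out of the genes used for clustering, and the 4 genes and the list out of naming. A cluster took the name of the best marker list with at least 3 markers up (10 CPM and a log2 fold of 1). At least as many markers had to be up as not, with a mean log2 fold of 0.5 or more. The cluster of 3533 nuclei had 3 of 7 epithelial markers up. Clusters under 0.5 of the library median depth, with no marker of the list among their leading genes, also stayed unnamed. This depth rule applied to the 1967 GC-like nuclei and the cluster of 5819 nuclei. GC subclusters were named in the same way from lists for the study's 3 subtypes, with cycling nuclei kept apart, and these thresholds were chosen with the clusters in view. The 4 genes and the lists were chosen with earlier results of these data known.

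UMI counts were summed per goat and class with at least 20 nuclei and tested with edgeR 4.0.16 (quasi-likelihood test, TMM, filterByExpr), with the goat as a block between classes. p-values were adjusted over all genes by the method of Benjamini and Hochberg, and calls are at an adjusted p under 0.05. Named genes were the 4, up to 20 listed pathway genes called in the GC or subtype comparisons by size of change, and for each of the 4 the 3 genes of most similar level. Alternatives were DESeq2 1.42.0, its size factors, no filter, other clustering resolutions, removal of the highest doublet scores, other thinning depths and each goat left out. The test was checked on simulated data.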

Additional observations from a re-analysis of the deposited data

Results flagged for a closer look

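The cluster of 3533 nuclei without a class name entered no comparison between classes, and all 4 genes were detected in it in every goat. In the Du'an goats, in replicate order, INHA stood there at 23.1 and 95.6 CPM, and in the Nubian goats at 836 and 150 CPM, above the GC-like level of the same goat in each case. INHBA stood at 58.7, 158, 663 and 236 CPM in the same order, below the GC-like level in each goat. INHBB stood at 56.9, 56.3, 126 and 92.7 CPM and FST at 937, 327, 396 and 323 CPM. INHA per INHBA was 0.394, 0.604, 1.26 and 0.637, above the ratio in mural-like and cumulus-like GCs of the same goat. Beside this, ribosomal protein genes made up 1.53%, 1.10%, 2.03% and 3.76% of the UMIs of these nuclei, against 0.133% to 0.176% in GC-like nuclei. In Nubian replicate 1, INHA stood at 2070 CPM in unnamed nuclei under 1000 UMIs and at 592 CPM in deeper ones. The part of depth and of cytoplasmic RNA in these levels was not tested.

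The INHA level of GC-like nuclei against all other nuclei of the same goat, unnamed nuclei included, lay at or above 0 in both Du'an goats and below 0 in both Nubian goats. On the log2 scale with 1 CPM added it was 0.01 and 0.83 in the Du'an goats and -0.21 and -0.18 in the Nubian goats, a difference of means of -0.61. The difference was not tested, and Du'an replicate 1, at 9.11 against 9.06 CPM, showed next to none.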

How the results depend on the processing

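Of 1138 alternative values of 125 results, 995 kept their direction and their side of the threshold or stayed within the spread, 103 lost a call, 1 gained one, 22 turned in direction and 17 moved. The calls of the 4 genes in GC-like nuclei held under every alternative. With the clustering resolution raised 1.5 times, INHBA came to -0.01 in cycling-like GCs, the breed value in cumulus-like GCs to -0.06 for INHBA and -0.50 for INHBB, and cycling-like PCSK6 and GATA6 to 0.28 and -0.14. Without the highest doublet scores, PCSK6 and GATA6 came to 0.27 and -0.08 there, and the mural-like breed value of INHBA to -0.17. The number of genes called in mural-like GCs was 2474 and 3034 under these 2 settings. DESeq2 called 26 genes between breeds in GC-like nuclei. At 2000 UMIs per nucleus, 30.4% of mural-like nuclei held INHA and INHBA. The cause was not tested for any of these.

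With 1 goat left out, mural-like values ran from 1.73 to 2.65 for INHA, 2.22 to 2.90 for INHBA, 1.11 to 1.5 for INHBB and 1.18 to 1.54 for FST, and 210 to 1434 genes were called. Breed values in GC-like nuclei ran from -0.69 to 3.88 for INHA, -0.21 to 3.8 for INHBA, 0.73 to 1.78 for INHBB and -0.47 to 0.10 for FST. Over all nuclei they ran from -0.42 to 3.93, -0.10 to 3.63, 0.68 to 1.91 and -0.55 to 0.15. Cumulus-like FST ran from -0.13 to 0.20 and GC-like BAMBI from -1.45 to 0.20. The breed value of INHBA in common progenitor-like GCs ran from -0.59 to 2.16, and those in cumulus-like GCs from -0.42 to 1.63 for INHA, -0.01 to 0.59 for INHBB and -1.60 to 0.44 for FST.

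The labels give both breeds replicates 1 and 2. Same-numbered goats deviated in opposite directions in GC-like nuclei (r = -0.348 across genes) and together over all nuclei (r = 0.161), so the numbers were not taken to pair the goats. With the replicate number as a block, 0 genes were called in GC-like nuclei. With the numbers of a breed crossed, chosen after seeing the data, 1 gene was called. In T or natural killer-like nuclei 149 genes were called with the block.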
